A study of Populus trichocarpa and Populus tremula x Populus alba with 22 samples.

Results

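The secondary wall cellulose synthases of poplar were followed as 5 genes: CesA4 (Potri.002G257900), CesA7-A (Potri.006G181900), CesA7-B (Potri.018G103900), CesA8-A (Potri.011G069600) and CesA8-B (Potri.004G059600). They were chosen by these gene IDs from the 42950 genes of each table, and all 5 passed the filter on low values in every comparison. The tables list IDs without names, so the CesA names are those under which the genes were chosen.

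Cellulose is made at the plasma membrane by rosette complexes built from several kinds of CesA catalytic subunit. In Arabidopsis, CESA4, CESA7 and CESA8 together form the complex of secondary walls, the thick walls laid down in xylem vessels and fibres after cells stop expanding, and loss of any of them gives collapsed xylem. Poplar has a single CesA4 and a pair of closely related copies each of CesA7 and CesA8, and all are known for high expression in developing wood.

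Both experiments, in different species, used paired-end 150 bp RNA-seq. Populus trichocarpa plants were grown hydroponically for 21 days in 0 µM Fe (plants P7, P22 and P30) or 10 µM Fe (plants P11, P13 and P17), and a young leaf library and a 3rd internode library were made from each plant. Leaf and stem came from 4-month-old Populus tremula x Populus alba carrying either a PtrbHLH011 overexpression (OE) construct or an empty vector, and each genotype had 3 leaf and 2 stem libraries. PtrbHLH011 belongs to the basic helix-loop-helix family of transcription factors. The sources used here give neither the promoter of the construct nor the number of independent transgenic lines. All OE libraries share a single name prefix, and all empty-vector libraries share another. Should each prefix stand for a single line, the construct and the line could not be told apart here. The Fe and overexpression libraries also differed in RNA kit and library type.

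The values are normalized counts: gene counts scaled by the authors to each library's size factor, with a separate table for each tissue of each experiment. Whole reads recovered from them totalled 29840597 to 68689878 per library in the Fe experiment and 26620695 to 30101710 in the overexpression experiment. The lowest count of any of the 5 genes was 163 reads, for CesA8-A in an OE leaf library, which carries a counting error of 7.83%. Counting error was therefore small beside the spread between libraries in leaf and internode. How the authors' counting shared reads between near-identical copies is not given, so the split between CesA7-A and CesA7-B, and between CesA8-A and CesA8-B, is uncertain. The genome that the hybrid's reads were aligned to is also not given, beyond the Potri form of the gene IDs. None of the IDs could be tied to PtrbHLH011 or to marker genes with the tables at hand, so neither the genotype labels nor the tissue labels were checked that way.

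The level of the 5 genes across tissues was described in CPM, the recovered reads of a gene scaled to the library's total, a scale that does not correct for gene length and so is compared here only within a gene. All 5 genes were highest in stem, with the empty-vector stem first and the OE stem second, and neither of these groups overlapped the group next below it. CesA4, the single-copy member, averaged 3054 CPM in OE stem and 5265 CPM in empty-vector stem (n = 2 each), against 59.2 CPM in OE leaf and 71.9 CPM in empty-vector leaf (n = 3 each). In the Fe experiment it averaged 361 CPM in Fe-deprived internodes and 57.9 CPM in Fe-sufficient internodes, and 6.26 CPM in Fe-deprived young leaves and 10.0 CPM in Fe-sufficient young leaves (n = 3 each). The Fe-deprived internode came next below OE stem for each of the 5 genes and did not overlap the group below. Below that place, most neighbouring groups overlapped. The group just below the Fe-deprived internode was the empty-vector leaf for CesA4 and the CesA7 copies, and the Fe-sufficient internode for the CesA8 copies. How many of all genes show such an order was not counted. Groups of different experiments also differ in species, RNA kit and library type.

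The CesA7 copies followed the same tissue order at the top. CesA7-A averaged 1434 CPM in OE stem and 2431 CPM in empty-vector stem, and 168 CPM in Fe-deprived internodes against 24.8 CPM in Fe-sufficient internodes. CesA7-B averaged 1408 CPM in OE stem and 1993 CPM in empty-vector stem, and 202 CPM in Fe-deprived internodes against 36.0 CPM in Fe-sufficient internodes. Both CesA7 copies were below 12 CPM in every young leaf library.

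The CesA8 copies differed in how far apart their tissues lay. CesA8-A averaged 308 CPM in OE stem and 337 CPM in empty-vector stem, and 174 CPM in Fe-deprived internodes against 38.7 CPM in Fe-sufficient internodes. CesA8-B averaged 1280.2 CPM in OE stem and 2486 CPM in empty-vector stem, and 288 CPM in Fe-deprived internodes against 64.2 CPM in Fe-sufficient internodes. Thus CesA8-A was less than 2-fold higher in OE stem than in Fe-deprived internodes, while CesA8-B was more than 4-fold higher. Between the control groups, empty-vector stem and Fe-sufficient internode, both copies lay further apart, at 337 against 38.7 CPM for CesA8-A and 2486 against 64.2 CPM for CesA8-B. Stem and internode also differ here in species, RNA kit, library type and growth, and OE stem and Fe-deprived internodes in construct and Fe supply. None of these can be told apart from the tissue here. The 5 genes together took 0.748% ± 0.0271 of all recovered reads in OE stem and 1.25% ± 0.00871 in empty-vector stem (SD, n = 2 each), 0.119% ± 0.0509 in Fe-deprived internodes and 0.0222% ± 0.0215 in Fe-sufficient internodes (SD, n = 3 each).

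**Figure D1:**
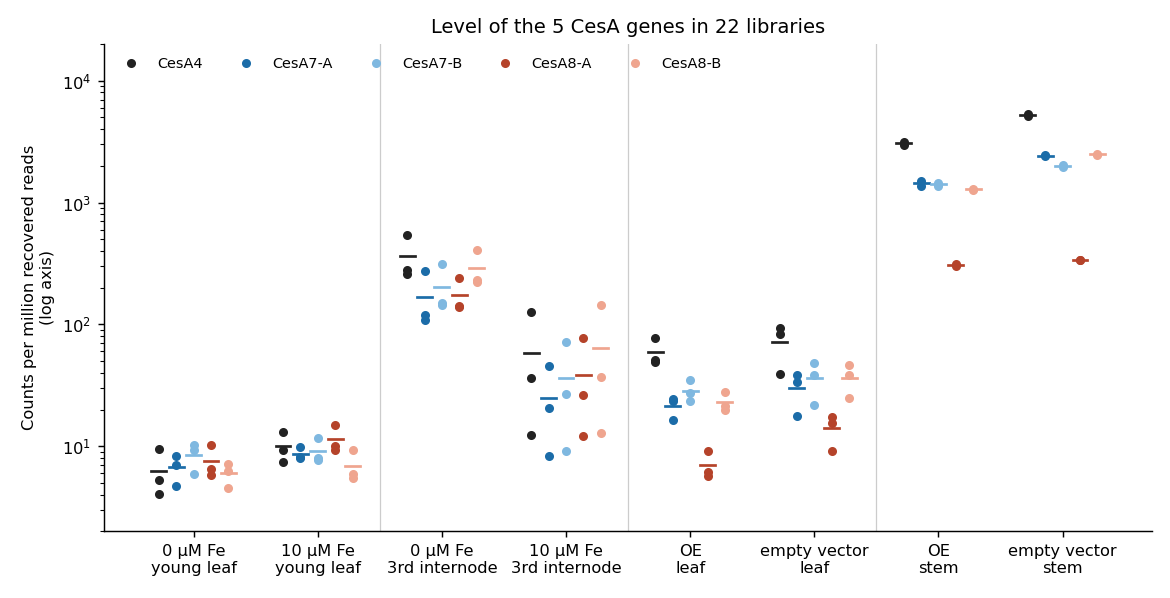
Level of each CesA gene in CPM (log axis) in the 8 groups, with 1 point per library and a line at the group mean. Stem libraries are the highest for all 5 genes, the Fe-deprived internode comes next, and the Fe-sufficient internode spreads widely (12.4 to 125 CPM for CesA4).

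The first comparison asked how 21 days without Fe affected the young leaf. None of the 5 genes passed the test there, although all 5 had a negative log2 change. CesA4, the non-duplicated subunit, had normalized counts of 206, 261 and 480.5 in the Fe-deprived leaves of P7, P22 and P30, against 714, 519 and 433 in the Fe-sufficient leaves of P11, P13 and P17. Its groups overlapped through P30 and P17, and its log2 change was -0.88 ± 0.34 (SE), with an adjusted p of 0.166 in limma.

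CesA7-A, a copy of the CESA7-type subunit, had 241, 349 and 426 in Fe-deprived leaves (P7, P22, P30), against 529.5, 449 and 474 in Fe-sufficient leaves (P11, P13, P17). CesA7-B had 519, 294 and 474 in Fe-deprived leaves, against 627, 447 and 444 in Fe-sufficient leaves, in the same plant order. The CesA7-A groups did not overlap and the CesA7-B groups did. The log2 changes were -0.55 ± 0.24 for CesA7-A and -0.26 ± 0.27 for CesA7-B (SE), with adjusted p of 0.212 and 0.607 in limma.

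CesA8-A, a copy of the CESA8-type subunit, had 295, 321 and 519.6 in Fe-deprived leaves, against 814, 521 and 585 in Fe-sufficient leaves. CesA8-B had 233, 309 and 365 in Fe-deprived leaves, against 501, 327 and 317 in Fe-sufficient leaves. The CesA8-A groups were separated only by the small gap between P30 and P13, and the CesA8-B groups overlapped. The log2 changes were -0.78 ± 0.28 for CesA8-A and -0.33 ± 0.27 for CesA8-B (SE), with adjusted p of 0.133 and 0.503 in limma.

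In the young leaf, therefore, 0 of 5 genes were called lower at an adjusted p under 0.05 in limma, where 3.27% of the genes tested were (937 genes). On the recovered reads edgeR and DESeq2 also called 0 of 5, where they called 956 and 2505 of all genes lower. At an unadjusted limma p under 0.05, 2 of 5 were lower (CesA4 and CesA8-A), against 12.8% of all genes. The groups did not overlap, with Fe-deprived lower, for 2 of 5 genes, against 15.6% of all genes. The median log2 change was -0.55 over the 5 genes and -0.01 over all genes tested. In whole-tissue RNA, fewer cells of a type and less RNA per cell cannot be told apart, here and in every comparison that follows.

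The same question in the 3rd internode gave large positive changes, none of which passed the test, and the Fe-sufficient plants differed widely among themselves. All 5 genes were 5.19-fold to 8.02-fold higher in Fe-deprived internodes, and every Fe-deprived internode exceeded every Fe-sufficient one for each gene. CesA4 had normalized counts of 11776, 12855.5 and 25276 in the Fe-deprived internodes of P22, P30 and P7, against 1717, 603 and 7151 in the Fe-sufficient internodes of P11, P13 and P17. The lowest Fe-deprived plant was 1.65-fold above P17, while P17 was itself 11.9-fold above P13. The log2 change of CesA4 was 3.00 ± 0.87 (SE), a fold of 8.02 with a 95% interval of 1.89 to 34.0, and its adjusted p was 0.144 in limma.

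CesA7-A had 4993, 5454 and 12739 in Fe-deprived internodes (P22, P30, P7), against 976, 406 and 2597 in Fe-sufficient internodes (P11, P13, P17). CesA7-B had 6599, 6906 and 14439 in Fe-deprived internodes, against 1266, 439.8 and 4130.2 in Fe-sufficient internodes. In both copies P7 was the highest plant and P13 the lowest. The log2 change was 2.80 ± 0.70 for CesA7-A and 2.72 ± 0.80 for CesA7-B (SE), with adjusted p of 0.113 and 0.147 in limma.

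CesA8-A had 6455, 6301 and 11211 in Fe-deprived internodes, against 1244, 587 and 4448 in Fe-sufficient internodes. CesA8-B had 10220, 10648 and 18955 in Fe-deprived internodes, against 1760.2, 618 and 8161 in Fe-sufficient internodes. Again P17 was the control closest to the Fe-deprived plants, and for CesA8-B the gap between P17 and the nearest Fe-deprived plant was only 1.25-fold. The log2 change was 2.38 ± 0.71 for CesA8-A and 2.62 ± 0.89 for CesA8-B (SE), with adjusted p of 0.152 and 0.191 in limma.

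**Figure D2:**
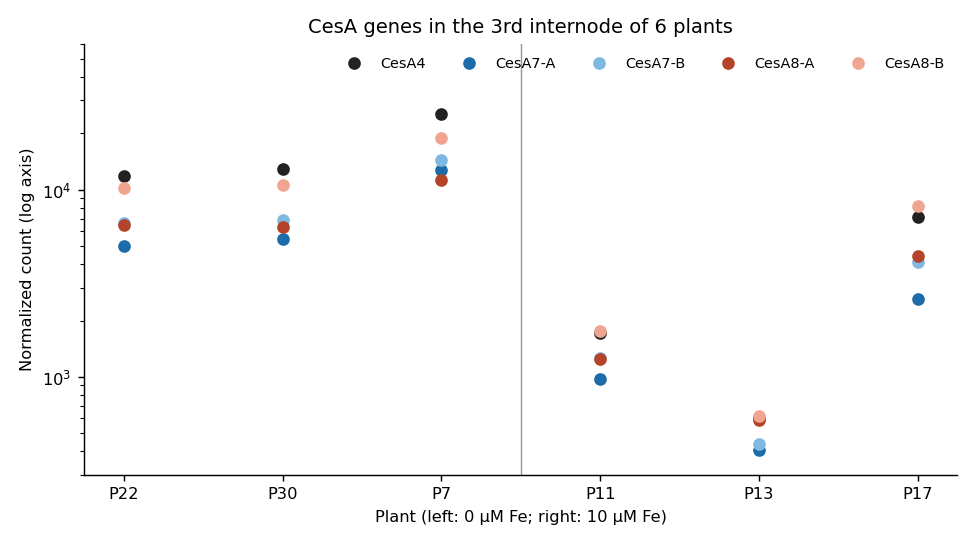
Normalized count (log axis) of each CesA gene in the 3rd internode, with 1 column of points per plant, P22, P30 and P7 at 0 µM Fe on the left and P11, P13 and P17 at 10 µM Fe on the right. For every gene the 3 Fe-deprived plants lie above the 3 Fe-sufficient plants, which run from P13 at the bottom to P17 at the top.

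In the internode, 0 of 5 genes were called higher at an adjusted p under 0.05 in limma, where 0.448% of the genes tested were (131 genes). On the recovered reads edgeR also called 0 of 5, where it called 63 of all genes higher. At an unadjusted limma p under 0.05 all 5 were higher, against 10.2% of all genes. The groups did not overlap, with Fe-deprived higher, for 5 of 5 genes, against 14.7% of all genes. The log2 changes of the 5 genes were above those of 98.3% to 99.1% of genes tested, with a median of 2.72 against 0.01 over all genes. The 5 genes went up and down together from plant to plant in this tissue, so their counts are not independent of each other.

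The call in the internode depended on the tool and on P17, and the size of the change on P13 as well as P17. P17 and P7, both numbered replicate 3, were the highest of their Fe groups for each gene. Their internode samples carry sample numbers far from those of all other libraries. Whether they were handled apart is not given, and an effect of that was not tested. DESeq2 on the recovered reads called 4 of 5 genes higher, all but CesA8-B (adjusted p = 0.107), where it called 5.64% of all genes higher. Without P17, limma called all 5 genes higher, with log2 changes of 3.17 to 3.94 and adjusted p of 0.0261 to 0.0364, where 2.32% of all genes were called higher. Without P13, the log2 changes were 1.71 to 2.16, with adjusted p of 0.168 to 0.267 in limma, and 0 of 5 were called. Without any of the other 4 plants limma also called 0 of 5. Without P22 it called 0 of all genes too, so that fit says nothing particular about the CesA genes. For the fits without P13, P30, P7 or P11 the share of all genes is not given here. Their 0 of 5 is therefore not read as particular to the CesA genes either. On the recovered reads the log2 changes of CesA4 and CesA8-B were smaller, 2.42 and 1.94 in edgeR and 2.40 and 1.92 in DESeq2. With the replicate number as a block, a pairing that the labels do not give, limma called 1 of 5, CesA7-A (adjusted p = 0.0446). In that fit 0.804% of all genes were called higher, and the other 4 had adjusted p of 0.0644 to 0.0979.

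Whether Fe deprivation acted differently in leaf and internode was tested on the difference between the tissues within each plant. The difference, leaf minus internode, was -3.88 ± 1.08 for CesA4, -3.35 ± 0.82 for CesA7-A, -2.98 ± 0.82 for CesA7-B, -3.15 ± 0.81 for CesA8-A and -2.95 ± 1.03 for CesA8-B (log2, SE). Their adjusted p in limma ran from 0.139 to 0.248, so 0 of 5 were called, where 0.391% of genes were called lower, and 5 of 5 were lower at an unadjusted p under 0.05, against 9.40% of all genes. Without P13 the differences were -3.07 to -2.17 and without P17 -4.98 to -3.89, and 0 of 5 were called without either plant. The fold of internode over leaf in the same plant shows the spread behind these values. For CesA4 in CPM it was 135 in P7, 48.9 in P22 and 29.7 in P30 without Fe, against 2.73 in P11, 1.33 in P13 and 16.8 in P17 with Fe. In P13 the internode was 1.04-fold to 2.16-fold above the leaf across the 5 genes, lowest for CesA7-A and highest for CesA8-B. In P7 it was 30.6-fold to 135-fold above.

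**Figure D3:**
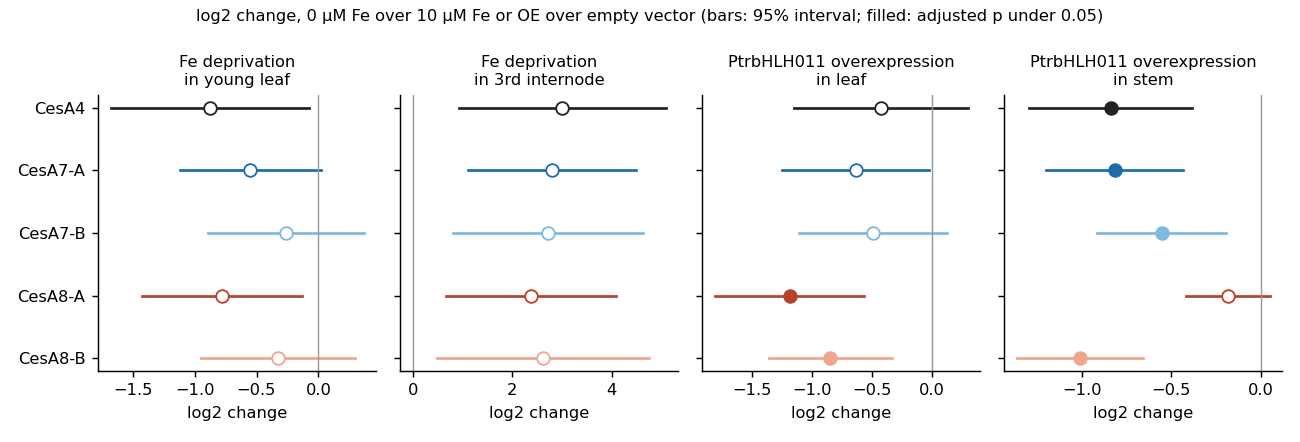
log2 change (0 µM Fe over 10 µM Fe, or OE over empty vector) of each CesA gene in the 4 comparisons, with 95% intervals; the panels have separate horizontal scales, and filled points passed an adjusted p under 0.05 in limma. All changes are negative except those in the internode, where they run from 2.38 to 3.00 and none passed.

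The overexpression comparison in leaf asked how PtrbHLH011 overexpression affected the genes there. Both CesA8 copies fell in OE leaves, and CesA4 and the CesA7 copies did not pass the test. CesA8-A had normalized counts of 155, 161 and 233 in OE leaves (replicates 1 to 3), against 517, 466 and 286 in empty-vector leaves. CesA8-B had 501, 593 and 703 in OE leaves, against 1358, 1138 and 783 in empty-vector leaves. Neither copy had overlapping groups, and empty-vector replicate 3 was the control nearest to OE in both. CesA8-A fell by 1.18 ± 0.27 on the log2 scale (adjusted p = 0.0186, limma), a fold of 0.440 with a 95% interval of 0.286 to 0.677. CesA8-B fell by 0.84 ± 0.22 (SE, adjusted p = 0.0316, limma), a fold of 0.557 with a 95% interval of 0.391 to 0.794.

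CesA4 had 1243, 1413 and 1971 in OE leaves, against 2743, 2498 and 1226 in empty-vector leaves. CesA7-A had 594, 461 and 614 in OE leaves, against 1125, 1002 and 558 in empty-vector leaves, and CesA7-B had 692, 656 and 888 in OE leaves, against 1419.8, 1154 and 681 in empty-vector leaves. In all 3 genes the groups overlapped through empty-vector replicate 3, whose values lay among those of the OE leaves or below them. The log2 changes were -0.43 ± 0.31 for CesA4, -0.63 ± 0.26 for CesA7-A and -0.49 ± 0.27 for CesA7-B (SE), with adjusted p of 0.366, 0.128 and 0.228 in limma.

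In leaf, 2 of 5 genes fell, where limma called 8.61% of the genes tested lower. On the recovered reads edgeR and DESeq2 called the same number of the 5. The share of all genes that edgeR and DESeq2 called lower is not given here, so that count alone is no support. The groups did not overlap, with OE lower, for 2 of 5 genes, against 19.1% of all genes. The median log2 change was -0.63 over the 5 genes and 0.00 over all genes. Without empty-vector replicate 3, all 5 genes were called lower by limma, with log2 changes of -1.44 to -0.79 and adjusted p of 0.00705 to 0.0347, where 8.44% of all genes were called lower. Leaving out any other single leaf library left 0 or 1 of the 5 called. Over all genes, limma also called fewer after leaving out any leaf library than with all of them.

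In stem, where the genes were at their highest, 4 of 5 fell in OE plants and CesA8-A did not pass the test. CesA4 had normalized counts of 92839 and 85176 in OE stems (replicates 1 and 2), against 159583 and 158510 in empty-vector stems. It fell by 0.84 ± 0.18 on the log2 scale (adjusted p = 0.0186, limma), a fold of 0.559 with a 95% interval of 0.407 to 0.768. Replicates of each genotype differed by less than 1.1-fold, far less than the genotypes did.

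CesA7-A had 44586 and 39025 in OE stems, against 75187 and 71754 in empty-vector stems. CesA7-B had 42680 and 39388 in OE stems, against 62893 and 57644 in empty-vector stems. Both copies were lower in each OE library than in each empty-vector library. CesA7-A fell by 0.82 ± 0.15 and CesA7-B fell by 0.55 ± 0.15 on the log2 scale (SE), with adjusted p of 0.0118 and 0.0322 in limma.

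CesA8-B had 38182 and 36410.5 in OE stems, against 76297 and 73949 in empty-vector stems, and fell by 1.01 ± 0.14 on the log2 scale (SE, adjusted p = 0.00522, limma). CesA8-A had 8900.1 and 9034 in OE stems, against 10344 and 10025 in empty-vector stems. The CesA8-A groups did not overlap, but its log2 change was only -0.18 ± 0.09 (SE) with a 95% interval of -0.42 to 0.05, and its adjusted p was 0.178 in limma. The CesA8 copies therefore stood at opposite ends of the 5 changes in stem, CesA8-B with the most negative and CesA8-A with the least.

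**Figure D4:**
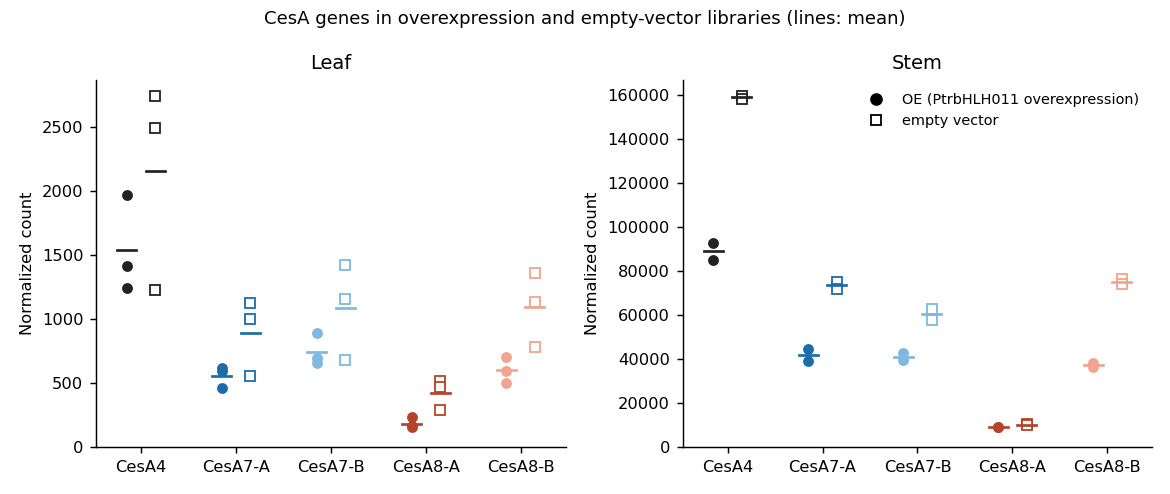
Normalized counts of each CesA gene in OE (filled circles, left) and empty-vector (open squares, right) libraries of leaf and stem, with lines at the group mean and separate vertical scales for the tissues. In leaf the lowest empty-vector library overlaps the OE libraries for CesA4, CesA7-A and CesA7-B, whereas in stem the genotypes are apart for all 5 genes and closest for CesA8-A.

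In stem, 4 of 5 genes fell, where limma called 17.2% of the genes tested lower, and the groups did not overlap, with OE lower, for 5 of 5 genes, against 36.9% of all genes. The median log2 change was -0.82 over the 5 genes and 0.00 over all genes. After quantile normalization 2 of 5 were called lower, CesA7-A at -0.50 and CesA8-B at -0.80, where 18.5% of all genes were, and CesA4 had a log2 change of -0.14 (adjusted p = 0.413, limma). With 2 libraries per group the calls rest on few samples. Leaving out a stem library keeps a lone library in its group. Those fits are used for log2 changes only, so they leave the calls of the 5 genes unchecked. Over the 12 alternatives in stem the log2 change ran from -0.90 to -0.14 for CesA4 and from -0.91 to -0.50 for CesA7-A. For CesA7-B it ran from -0.62 to -0.29, for CesA8-A from -0.21 to -0.16 and for CesA8-B from -1.04 to -0.80.

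The effect of overexpression passed the test of a difference between leaf and stem for 1 of the 5 genes, CesA8-A. Its difference, leaf minus stem, was -1.0 ± 0.35 on the log2 scale (SE, adjusted p = 0.0457, limma), from a change of -1.18 in leaf and -0.18 in stem. For CesA4, CesA7-A, CesA7-B and CesA8-B the difference was 0.41, 0.18, 0.07 and 0.17, with adjusted p of 0.506 to 0.907 in limma and 95% intervals reaching from -0.76 to 1.42 over the 4 genes. Among all genes tested in both tissues 18.8% were called with a negative leaf minus stem difference in the overexpression effect, so a call of this kind was common. The CesA8-A call was lost in 9 of 12 alternatives, among them the replicate number as a block (adjusted p = 0.0853, limma) and leaving out any of 8 of the 10 libraries.

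The copies of a pair were next compared through their ratio within each library, which needs no scaling between libraries. The ratio is of normalized counts, not of levels per length, so only its differences between libraries are read. In stem the ratio of CesA8-A to CesA8-B was 0.233 and 0.248 in OE libraries, against 0.136 in each of the empty-vector libraries, a difference of 0.83 on the log2 scale. In leaf the same ratio was 0.310, 0.271 and 0.332 in OE libraries, against 0.380, 0.409 and 0.365 in empty-vector libraries, a difference of -0.34. The genotypes did not overlap in either tissue, and the ratio was higher in OE stem and lower in OE leaf. The exact two-sided permutation test gave p = 0.3333 in stem and p = 0.1 in leaf, the smallest values that 2 against 2 and 3 against 3 libraries allow, so neither could reach 0.05.

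In the Fe experiment the CesA8-A to CesA8-B ratio was 1.26, 1.04 and 1.42 in Fe-deprived leaves (P7, P22, P30), against 1.62, 1.59 and 1.84 in Fe-sufficient leaves (P11, P13, P17), without overlap (exact permutation p = 0.1). In the internode it was 0.632, 0.592 and 0.591 in Fe-deprived plants (P22, P30, P7), against 0.707, 0.950 and 0.545 in Fe-sufficient plants, with overlap (exact permutation p = 0.4). The CesA7-A to CesA7-B ratio moved less: its group means differed by -0.29 in young leaf, 0.08 in internode, -0.14 in OE leaf and -0.26 in OE stem on the log2 scale, and only in stem did the groups not overlap. Over the 8 ratio tests the lowest Benjamini-Hochberg adjusted p was 0.4.

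The ratios were also set side by side between the tissues of the same plant, a comparison chosen after the values had been seen, so its p is no independent support. The CesA8 ratio was higher in the young leaf than in the internode in 6 of 6 plants, by 1.13 ± 0.384 on the log2 scale (SD, n = 6). The exact sign-flip permutation test gave p = 0.03125, the smallest that 6 plants allow, and 0.0625 after adjustment over both pairs, which does not pass 0.05. For CesA7 the leaf was higher in 5 of 6 plants, by 0.15 ± 0.599 (SD, exact permutation p = 0.531).

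**Figure D5:**
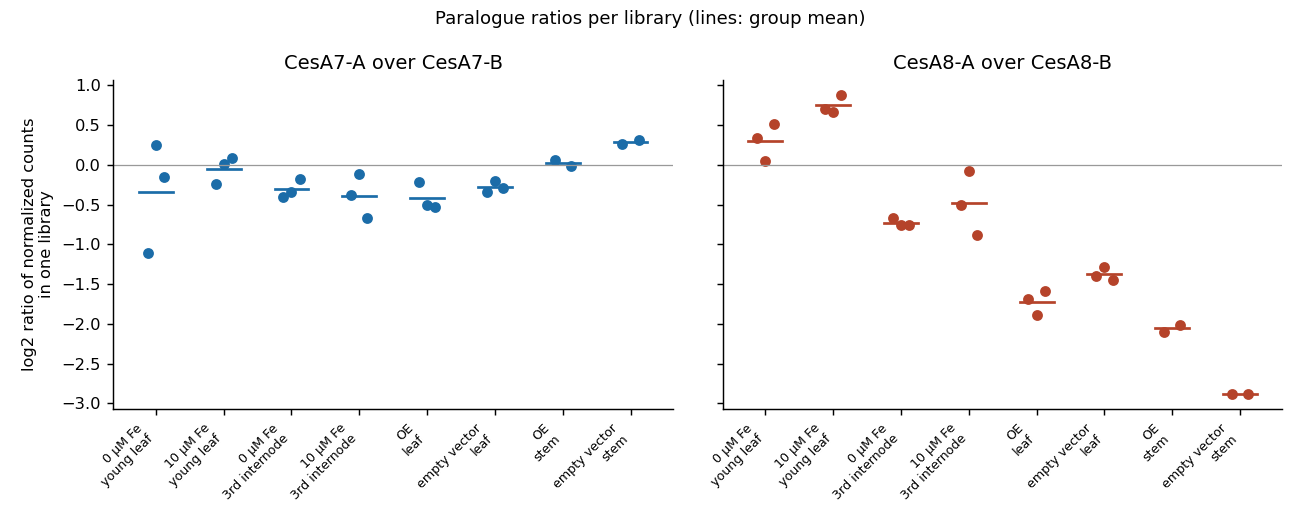
log2 ratio of normalized counts of CesA7-A to CesA7-B (left) and of CesA8-A to CesA8-B (right), with 1 point per library and a line at each group mean. The CesA8 ratio spans from about 0.88 in Fe-sufficient young leaves down to -2.88 in empty-vector stems, while the CesA7 ratio stays within -1.11 to 0.32. The ends of the CesA8 span come from experiments that differ in species, RNA kit and library type.

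The 5 genes varied together. On the log2 scale, centred within each table, Pearson's r between any 2 of them was 0.939 to 0.978 over the 22 libraries, which share the differences between treatments. Within the internode table r was 0.978 to 0.999 over 6 libraries, and among the young leaf libraries it was 0.223 to 0.967. Of 18091 genes with a mean of at least 50 in each table, 40 others had r above 0.9 with the mean of the 5. The closest were Potri.010G141600 (r = 0.977), Potri.001G416800 (r = 0.976), Potri.001G068100 (r = 0.976), Potri.007G107200 (r = 0.975) and Potri.010G184000 (r = 0.969). Without the 6 internode libraries their r was 0.793 to 0.933, lowest for Potri.010G184000. These values are descriptive: the 5 were chosen over libraries that hold the Fe and overexpression differences, so their changes follow from that choice. Their log2 changes were 2.47 to 3.30 in Fe-deprived internodes, where none passed (adjusted p of 0.0863 to 0.151, limma), and -1.05 to -0.33 in OE stem.

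For comparison, a list of 12 further gene IDs was followed, to which the tables used here give no name and no role is assigned. In the internode all 12 had negative log2 changes, from -1.55 to -0.10 with a median of -0.96, against the positive changes of the 5 CesA genes, but only Potri.006G052600 fell (-1.18, adjusted p = 0.0360, limma), where 0.264% of all genes were called lower. In young leaf Potri.005G194200 fell (-0.69, adjusted p = 0.0485, limma) and the other 11 did not pass, where 3.27% of all genes were called lower. In OE leaf 2 of 12 rose, Potri.013G019800 by 0.80 and Potri.005G087500 by 0.78, and Potri.002G066600 fell by 0.61, where 12.7% of all genes were called higher and 8.61% lower. In OE stem 6 of 12 rose and 1 fell, where 20.0% of all genes were called higher and 17.2% lower, with a median log2 change of 0.54 over the list. The 3 with the smallest p had log2 changes of 0.94 (Potri.005G087500), 0.93 (Potri.013G019800) and 0.66 (Potri.016G054900). The leaf minus internode and leaf minus stem tests called 0 of 12.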

How the data were processed

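Each deposited value is a signal for a gene: a whole count that the authors divided by a size factor per library, in 4 tables normalized separately. Per the submitters' processing notes, the tools included DESeq2 2.11.40.7, HISAT2 2.2.1 and StringTie 2.2.1, with no roles stated. The build was not given in the sources used here. Dividing by the step of each library returned whole numbers for 100% of values within 0.001, called reads here. Each table was fitted alone with limma 3.58.1 (R 4.3.3, mean-variance trend) on log2(value + 1), two-sided, with Benjamini-Hochberg adjustment over all genes with at least 10 in at least 3 libraries (2 in stem). The log2(value + 1) scale understates changes of low genes. Leaf minus internode was tested within plants, and leaf minus stem as an interaction over 10 libraries, which did not pair plants. The pipeline was tested on simulated data. Alternatives were pseudocounts of 0.1 and 5, no filter or one at 50, quantile normalization, edgeR 4.0.16 and DESeq2 1.42.0 on the recovered reads, leaving out each library, and a replicate block.

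The 5 genes and the list of 12 IDs were chosen with earlier results of these data known. Named genes were the 5, at most 3 called genes of the list per comparison, and the 5 genes most correlated with the CesA mean. The lists of wall genes and cell type markers, defined by gene description, had no members, since 0 IDs matched the reference table (P.trichocarpa_v4.1). In the internode, same-numbered libraries deviated together (r of 0.271, 0.124 and 0.480), so the fit with the number as a block is printed beside the main fit. The main fit took no pairs, and the labels give none. Fe-deprived replicate 2 had a higher r with Fe-sufficient replicate 1 (0.185) than with replicate 2 (0.124), so the pairing is uncertain. The labels call the libraries biological replicates. Plant codes are given in the Fe experiment only, so p-values of the overexpression experiment measure the spread between libraries. Replicate libraries differed by more than sampling noise. Counting errors cover counting only.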

Additional observations from a re-analysis of the deposited data

Results flagged for a closer look

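The effect of PtrbHLH011 overexpression on CesA8-A differed between leaf and stem by -1.0 on the log2 scale (SE 0.35, adjusted p = 0.0457, limma interaction fit). CesA8-A was lower in 3 of 3 OE leaves than in any empty-vector leaf and lower in 2 of 2 OE stems than in any empty-vector stem, with log2 changes of -1.18 and -0.18. CesA8-A kept the call with a pseudocount of 5, without OE leaf replicate 3 and without empty-vector leaf replicate 3, and lost it in the other 9 of 12 alternatives, over which its adjusted p ran from 0.00462 to 0.119.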

How the results depend on the processing

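Of 375 recomputed log2 changes of the 5 genes, 326 kept their direction and their side of the threshold, 32 lost a call, 13 gained one and 4 changed sign. Young leaf and the leaf minus internode test had 0 of 5 called under every alternative run. The internode count, 0 at first, was 4 with DESeq2 and 1 with the replicate block, and 0 to 5 when a library was left out. Leaving out a library gave 0 to 5 in OE leaf (2 with all) and 0 to 1 for leaf minus stem (1 with all, 0 with the replicate block). In OE stem 4 were called with all libraries and 2 after quantile normalization. Leave-outs there kept a lone library in a group, so no separate count is given for them, though the totals of 375 include them. The sign changes were all in leaf minus stem tests that were not called. Over the leave-outs CesA7-A ran from -0.13 to 0.38, CesA7-B from -0.24 to 0.29 and CesA8-B from -0.056 to 0.34, each lowest without empty-vector leaf replicate 3, and CesA7-B was also negative (-0.07) without OE leaf replicate 3. The CesA7 ratio difference ran from -0.58 to 0.10 in young leaf, positive only without P7, and from -0.063 to 0.21 in internode, negative only without P17. The causes were not tested. Leave-outs for the ratios were chosen after seeing the data.

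Over all genes, limma called 1807 in young leaf (4744 with DESeq2, 343 with the block), 208 in internode (97 with edgeR, 3328 with DESeq2, 401 with the block) and 135 in leaf minus internode (1 with the block, 270 unpaired). Leaving out a library gave 230 to 3165 in young leaf, 0 to 1499 in internode, 2739 to 5704 in OE leaf (5760 with all) and 0 to 156 in leaf minus internode. In OE stem 9230 were called with all libraries. In young leaf the deviations of same-numbered libraries had r of -0.252 to 0.0886, which gave no pairing. In OE leaf r was positive for each number (0.286, 0.0466 and 0.110), so a pairing there was left undecided. In stem, centring such small groups forces every r to a single size with mirrored signs, here 0.0693 and -0.0693. That is too little to show a pairing. The block changed no other call of the 5 genes within a tissue.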
